A study of Gallus gallus with 8 samples.

Results

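The cytosolic ribosomal protein genes were compared between a trachea library of hydrogen sulfide (H2S) exposed chickens and a trachea library of control chickens, both taken at 42 days of age. Members were the genes of the deposited mRNA count table whose symbol is RPL or RPS followed by a digit, RPLP followed by a digit, or RPSA, without the RPS6K kinases. This rule found 76 of 26296 genes, 45 with large subunit names (RPL and RPLP) and 31 with small subunit names (RPS and RPSA), and it used no measured value. The H2S birds lived in chambers that received the gas continuously, held at 3.5 to 4.5 mg/kg over weeks 0 to 3 and raised to 19.5 to 20.5 mg/kg over weeks 4 to 6, while the control chamber received 0 mg/kg. From each group 1 mRNA library, numbered 3, was analysed here, and the labels do not say whether a library holds 1 bird or pooled tissue. No test between exposure and control was therefore possible, and every difference below is one between these libraries, with no replicate check.

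The cytosolic ribosome joins a small subunit, which decodes the mRNA, to a large subunit, which forms the peptide bond and lets the new chain out through a tunnel. Most ribosomal proteins are present as a single copy per ribosome, and in vertebrates their mRNAs begin with a terminal oligopyrimidine (TOP) tract, through which growth signals of the mTOR pathway control their translation. Ribosomal protein mRNAs are abundant in most tissues and short. In the trachea they come from all cell types together, so less RNA per cell and fewer cells of a type cannot be told apart.

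The libraries held 20839798 counts (H2S) and 18875586 counts (control). Of the 80 standard subunit names, 72 matched the table (RACK1 under its older symbol GNB2L1), and RPL10, RPL13A, RPL18, RPL26, RPL41, RPS9, RPS18 and FAU were not analysed here. By symbol, the members comprise 70 standard subunits and 6 other genes, namely RPL3L, RPL7L1, RPL10L, RPL22L1, RPS27L and RPS19BP1. In the RefSeq gene table of the GRCg7b assembly, 72 members had a current symbol or synonym, and RPSA, RPS4X and RPL39 appear there under the symbols RPSAP58, RPS4Y1 and RPL39L. A gene was called measured with at least 20 counts in 1 library, which 75 members and 15268 genes in all reached. RPL14 did not, at 16 counts in the H2S library against 11 in the control library.

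Ribosomal protein genes were higher as a group in the H2S library. Their counts made up 1.18% of the H2S library (95% exact binomial interval 1.18 to 1.19%, counting error only) and 0.988% of the control library (0.984 to 0.992%). The median member had a ratio of 1.249, H2S over control, on counts divided by TMM effective library sizes (log2 0.32, interquartile range 0.15 to 0.52), while the median ratio of all measured genes was 0.9995. A ratio above 1 was found for 68 of the 75 measured members, against 49.9% of all measured genes, and 7 members lay below 1. At least 25% higher were 37 members, against 20.5% of all measured genes, and 0 members were at or under a ratio of 0.8, against 19.7%. At least 2-fold higher were 3 members, against 4.71%, and 0 were at or under 0.5, against 3.71%. Most members were thus higher, and most of them by less than 2-fold. Scaling by total counts gave 64 members above 1 and 27 at least 25% higher, the latter against 17.8% of all measured genes. The median log2 ratio of all measured genes was then -0.05.

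**Figure D1:**
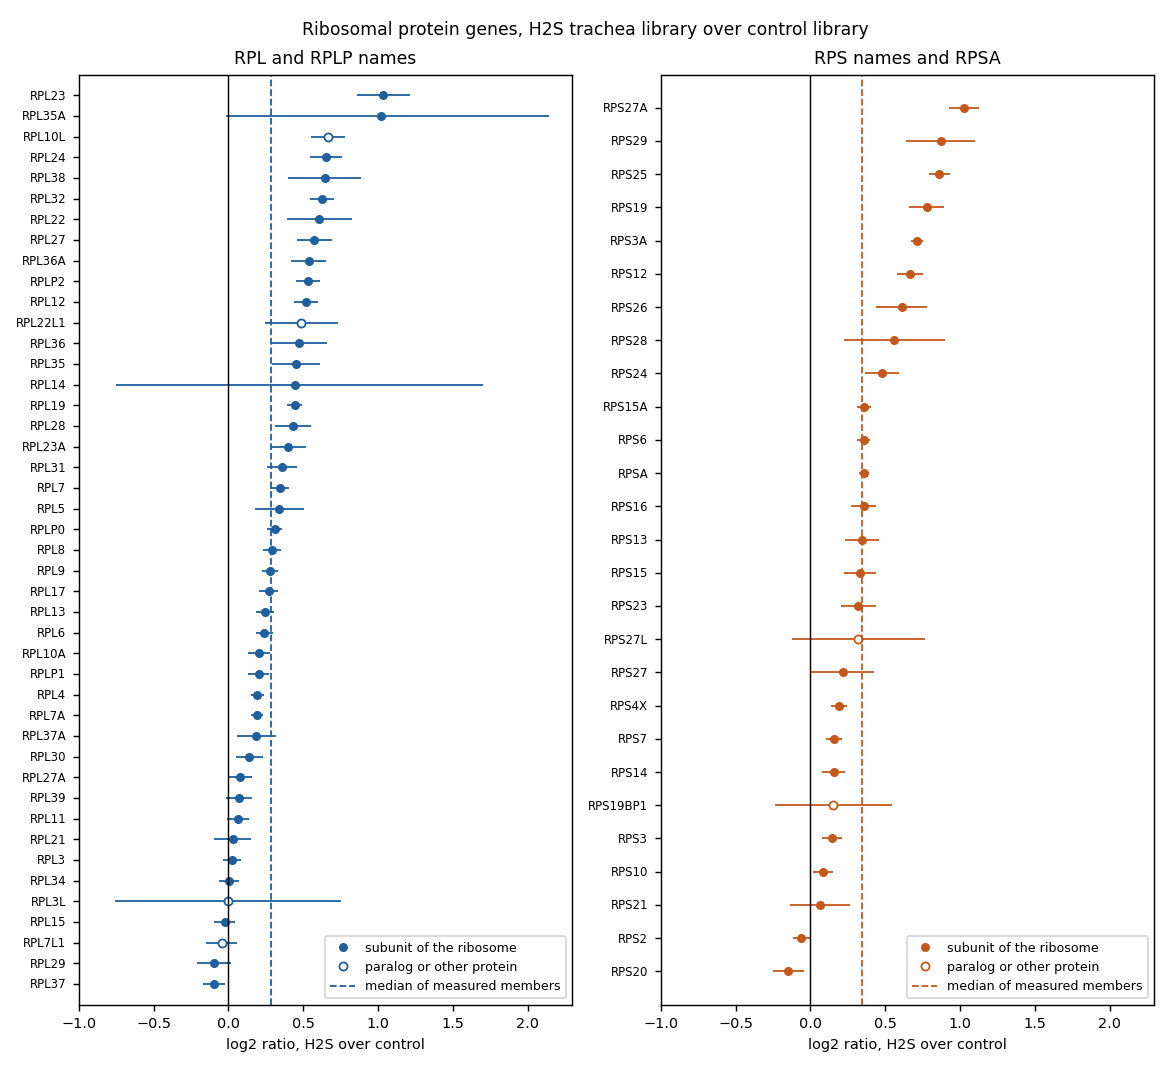
Log2 ratio (H2S over control, TMM-scaled counts) of each ribosomal protein gene, with RPL and RPLP names on the left and RPS names and RPSA on the right. Points are ratios, bars are 95% exact counting intervals, open points are paralogs or other proteins, some members are not drawn, and dashed lines are the medians of measured members, at 0.28 and 0.35, both to the right of 0.

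The members differed among themselves by more than counting error. The SD of their log2 ratios was 0.28, while the median half-width of their 95% counting intervals was 0.09. The interval lay wholly above the median member ratio for 21 members and wholly below it for 29. Their levels were otherwise ordered alike in both libraries, with a Pearson r of 0.99 between log2 levels across the 75 members, which share their gene lengths, so this is a description across genes. No transcript or coding length was used here, so counts of different genes do not rank their transcript levels.

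The highest ratios were found in both subunits. RPL23, a large subunit protein that also binds the p53 regulator MDM2 in human cells, had a level of 41.3 CPM (counts scaled to library size by TMM) in the H2S library against 20.1 CPM in the control library, from 845 and 387 counts. Its ratio of 2.05 (95% counting interval 1.81 to 2.32) was the highest of the measured members. RPS27A, which is made as a fusion of ubiquitin and a small subunit protein, had 119 CPM in the H2S library against 58.5 CPM in the control library, a ratio of 2.04 (1.90 to 2.19). Its ubiquitin part resembles that of other ubiquitin genes, so the assignment of its reads is uncertain. RPL35A also had a ratio of 2.03, but from only 26 counts in the H2S library against 12 in the control library, and its interval of 0.990 to 4.42 spans 1.

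The next 5 members all belong to the small subunit. RPS29, a zinc-binding protein of the subunit head, had 22.4 CPM in the H2S library against 12.2 CPM in the control library, a ratio of 1.83 (1.56 to 2.15). RPS25, which some viral and cellular mRNAs need for internal initiation, had 222 CPM in the H2S library against 122 CPM in the control library, a ratio of 1.82 (1.73 to 1.91). Both lay well above the group's median ratio. RPS19, mutated in the human red cell disorder Diamond-Blackfan anaemia, had 80.0 CPM in the H2S library against 46.7 CPM in the control library, a ratio of 1.71 (1.58 to 1.86). RPS3A, which lies near the site where the mRNA leaves the subunit, had 647 CPM in the H2S library against 395 CPM in the control library and a ratio of 1.64 (1.59 to 1.69). RPS12 had 138 CPM in the H2S library against 87.1 CPM in the control library and a ratio of 1.59 (1.49 to 1.69). With 13244 counts in the H2S library against 7579 in the control library, RPS3A weighs heavily in any sum over the small subunit.

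Above a ratio of 1.5 stood 15 members in all, 7 large and 8 small, against 10.6% of all measured genes. Beside those described, these included RPL10L (1.59), RPL24 (1.57), RPL38 (1.56), RPL32 (1.54), RPS26 (1.53) and RPL22 (1.52). RPL24 forms a bridge between the subunits, and RPL38 is known in mice for the translation of Hox mRNAs.

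Another 22 members were 25% to 50% higher, 13 large and 9 small, against 9.91% of all measured genes. On the large side they were RPL27, RPL36A, RPLP2, RPL12, RPL22L1, RPL36, RPL35, RPL19, RPL28, RPL23A, RPL31, RPL7 and RPL5, led by RPL27 at 1.49. The small side included RPS28, RPS24, RPS15A, RPS6, RPSA, RPS16, RPS13 and RPS15, led by RPS28 at 1.47 (1.17 to 1.87). RPSA, which also acts as a laminin receptor precursor at the cell surface, had 796 CPM in the H2S library against 622 CPM in the control library, a ratio of 1.28 (1.2502 to 1.31). RPS6, the substrate after which the S6 kinases are named, had 511 CPM in the H2S library against 399 CPM in the control library, a ratio of 1.28 (1.24 to 1.32). RPS6 and RPSA therefore lay close to the group's median. Just past 25% higher was RPS15 at a ratio of 1.26, and just short of it were RPS23 at 1.249 and RPS27L at 1.246.

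Between 10% and 25% higher lay 21 members, 13 large and 8 small, against 14.2% of all measured genes. Among these members were RPS23, RPS27L, RPLP0, RPL8, RPL9, RPL17, RPL13, RPL6, RPS27, RPL10A, RPLP1, RPL4, RPL7A, RPS4X, RPL37A, RPS7, RPS14, RPS19BP1, RPS3 and RPL30. A further 10 members lay at ratios between 1 and 1.1, against 15.2% of all measured genes. These members included RPS10, RPL27A, RPL39, RPL11, RPS21, RPL21, RPL3 and RPL34. RPL34 was the closest to equal scaled levels among them, at 179.1 CPM in the H2S library against 178.8 CPM in the control library.

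The 7 members below 1 were not far from it. RPS20, a protein of the small subunit head, had the lowest ratio at 0.903 (0.842 to 0.969), from 76.6 CPM in the H2S library against 84.8 CPM in the control library. RPL37 had 138 CPM in the H2S library against 148 CPM in the control library, a ratio of 0.935 (0.887 to 0.985). RPL29 had 62.5 CPM in the H2S library against 66.8 CPM in the control library, also a ratio of 0.935 (0.865 to 1.01). RPS2, which lines the path of the mRNA into the small subunit, had 258 CPM in the H2S library against 269 CPM in the control library, a ratio of 0.958 (0.922 to 0.996). RPL7L1, RPL15 and RPL3L had ratios of 0.970, 0.983 and 0.998, each with an interval that spans 1. The lowest members thus lay much closer to equality than the highest.

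The paralogs did not all share the ratio of their standard partners. RPL22L1 had a ratio of 1.40 (1.18 to 1.66) beside 1.52 (1.31 to 1.77) for RPL22, a pair with overlapping intervals. RPL7L1, a nucleolar relative of RPL7, had 0.970 (0.902 to 1.04), whereas RPL7 itself had 1.27 (1.22 to 1.32), without overlap of the counting intervals. RPS27L, which p53 induces in human cells, had 1.246 (0.916 to 1.701) from 101 counts in the H2S library against 76 in the control library, beside 1.16 (1.002 to 1.35) for RPS27. RPL3L, which replaces RPL3 in striated muscle of mammals, had 33 counts in the H2S library against 31 in the control library, a ratio of 0.998 (0.593 to 1.69), beside 1.02 (0.976 to 1.06) for RPL3. RPL10L had 81.5 CPM in the H2S library against 51.4 CPM in the control library, and its usual partner RPL10 was not analysed here. RPL10L is classed as a paralog by its symbol alone and had no match in the RefSeq gene table. Whether this entry is RPL10 itself was not tested. RPS19BP1 encodes a protein that binds RPS19 and is no ribosome subunit, although the symbol rule takes it in. It had a ratio of 1.11 (0.848 to 1.46). Paralogs resemble each other in sequence, so their reads may have been divided between them.

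Large and small subunit members were set against each other in the same 2 libraries. The median log2 ratio was 0.28 over 44 measured large subunit members (interquartile range 0.12 to 0.49) and 0.35 over 31 small subunit members (interquartile range 0.15 to 0.58), a difference of -0.06. The interquartile ranges overlapped over most of their width. Above 1 were 39 large and 29 small subunit members, against 49.9% of all measured genes. At least 25% higher were 20 large and 17 small, against 20.5%. Summed counts differed more, with a pooled ratio of 1.19 (1.18 to 1.20) for the large and 1.30 (1.28 to 1.31) for the small subunit. Small subunit members accordingly took 46.9% of all member counts in the H2S library (95% exact interval 46.7 to 47.1%) and 44.8% in the control library (44.6 to 45.0%). Without RPS3A, a choice made after its value was seen, the pooled small subunit ratio was 1.26.

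The P-stalk, which recruits translation factors to the large subunit, stood above 1 in all 4 of its genes, with RPLP2 at 1.45 (1.37 to 1.53), its base protein RPL12 at 1.43 (1.35 to 1.51), RPLP0 at 1.24 (1.20 to 1.28) and RPLP1 at 1.15 (1.097 to 1.21). Of all measured genes, 49.9% were above 1. RPLP1 and RPLP2 form a dimer in the stalk, yet their counting intervals did not overlap. RPL5 and RPL11 bind the 5S rRNA together and, when not built into ribosomes, hold back MDM2. RPL5 had 34.6 CPM in the H2S library against 27.3 CPM in the control library, a ratio of 1.27 (1.13 to 1.42), while RPL11 had 159 CPM in the H2S library against 152 CPM in the control library, a ratio of 1.05 (0.996 to 1.101). The proteins listed for the exit tunnel region had a median log2 ratio of 0.27 over 5 genes, with ratios between RPL39 at 1.05 and RPL35 at 1.37. The small subunit head had a median of 0.37 over 13 genes and the widest range of these groups, with RPS27A at its top and RPS20 at its bottom. A list of 10 genes mutated in human Diamond-Blackfan anaemia, which does not hold every such gene, had 9 measured. In that list 9 of 9 measured were above 1, against 49.9% of all measured genes. Its median log2 ratio was 0.37, with RPL35A and RPS19 at its top, and RPL11 and RPS10 (1.06) at its bottom. Outside the symbol rule, GNB2L1, the small subunit scaffold also called RACK1, had a ratio of 1.13 (1.09 to 1.17).

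Members were also set beside other genes of like count, which reflects transcript length as well as level. Of the 75 measured members, 27 stood in the highest decile of measured genes by scaled counts, not set per length, where the median log2 ratio was 0.24 for members and 0.02 for other genes, and 15.4% of other genes were at least 25% higher. In the next decile down the medians were 0.36 for 13 members and -0.003 for other genes. Across members the Spearman correlation of the log2 ratio with the scaled count was -0.19, a description over genes that share both libraries.

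**Figure D2:**
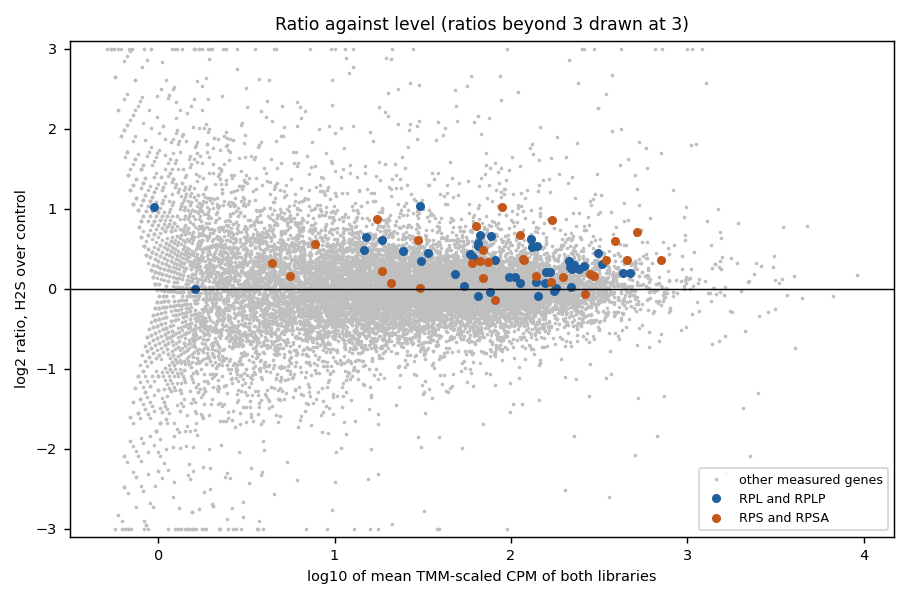
Log2 ratio (H2S over control) against the log10 mean TMM-scaled CPM of both libraries for all measured genes (grey) and for ribosomal protein members (blue for RPL and RPLP, orange for RPS and RPSA). Among the 27 members in the highest decile by scaled counts the median lies at 0.24, where the grey points centre on 0.02.

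Ribosomal protein genes are short, and their ratios were therefore set beside those of other genes of like span. Gene spans from RefSeq were at hand for 71 measured members and 12959 genes. In the bin of shortest genes, up to 2053 bp, the median log2 ratio was 0.54 for 15 members and 0.06 for the other genes, of which 32.1% were at least 25% higher. In the next bin, from 2056 to 3234 bp, it was 0.19 for 21 members and -0.04 for the other genes. The Spearman correlation of log2 ratio and gene span over these 71 members was -0.31, so the shortest genes tended to have the higher ratios. With each member centred on genes of like span, the median log2 ratio was 0.30 over the 71 members. Spans include introns, and transcript length was not tested.

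**Figure D3:**
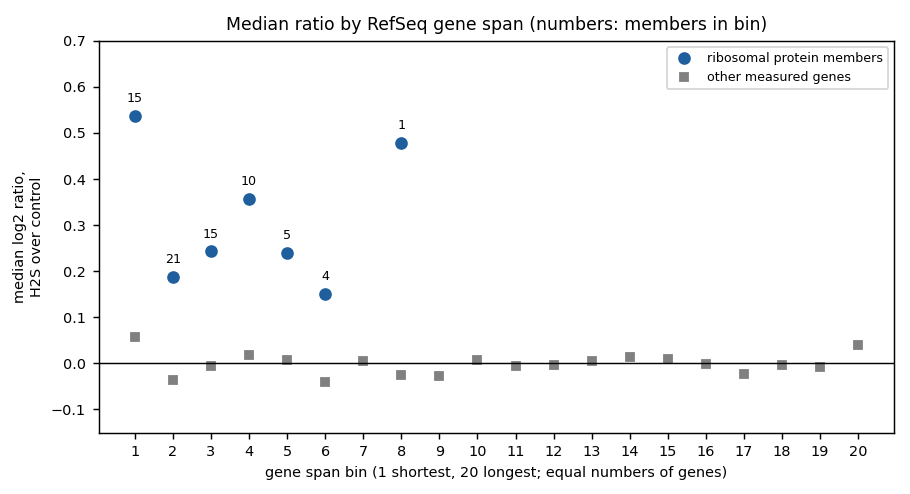
Median log2 ratio (H2S over control) by bin of RefSeq gene span, from shortest to longest, for ribosomal protein members (blue circles, number of members above) and other measured genes (grey squares). In each bin with members the member median lies above that of the other genes, with 0.54 against 0.06 in the first bin.

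Lists of other genes for translation and ribosome production had median log2 ratios between 0.01 and 0.16, against 0.32 for ribosomal protein members, a gap that was not tested. Scaling by total counts moves every log2 ratio by -0.05, which takes list medians between 0 and 0.05 below 0. Ribosome assembly factors, which process rRNA and fold it with the proteins in the nucleolus, had a median log2 ratio of 0.16. Of 59 measured, 45 were above 1, 13 at least 25% higher and 1 at or under 0.8, against 49.9%, 20.5% and 19.7% of all measured genes. The share at least 25% higher was thus close to that of all genes. MPHOSPH10 and UTP3, both of the small subunit processome, led with ratios of 1.55 (1.37 to 1.75) and 1.54 (1.26 to 1.89), and MRTO4 and IMP4 were lowest at 0.587 (0.447 to 0.767) and 0.853 (0.674 to 1.08). RNA polymerase I and its factors, which make the large rRNA precursor, had a median of 0.05 over 14 genes, from TAF1D at 1.33 and RRN3 at 1.26 to TAF1B at 0.872 and POLR2E at 0.794.

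Non-ribosomal mRNAs with a TOP tract had a median log2 ratio of 0.02 over 20 genes. Of these, 12 were above 1 and 5 at least 25% higher, against 49.9% and 20.5% of all measured genes. PABPC4, a poly(A)-binding protein, and NPM1, a nucleolar chaperone, led at 1.45 (1.32 to 1.58) and 1.38 (1.34 to 1.43), and VIM and LDHB were lowest at 0.899 and 0.808. Well-known TOP genes, named after their values were seen, differed from each other. EEF1A1, the elongation factor that delivers tRNAs, had 40830 counts in the H2S library against 38923 in the control library, a ratio of 0.984 (0.970 to 0.998). TPT1 had 15741 counts in the H2S library against 10874 in the control library, a ratio of 1.36 (1.32 to 1.39). Initiation factors had a median of 0.01 over 33 genes, with 2 at least 25% higher, EIF3L at 1.41 and EIF4B at 1.32, and EIF3B and EIF2B4 lowest at 0.845 and 0.818. Elongation and termination factors, listed by symbol, had a median of 0.02 over 12 genes. They ran from EEF1E1 at 1.253 and EEF1D at 1.21 to PELO at 0.875 and ABCE1 at 0.863. EEF1E1, despite its symbol, encodes a protein of the tRNA synthetase complex. Cytosolic aminoacyl tRNA synthetases had a median of 0.01 over 19 genes, from CARS at 1.49 and QARS at 1.16 to KARS at 0.855 and SARS at 0.757.

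Among regulators of ribosome gene expression, the median log2 ratio was 0.05 over 17 genes. MYC, a transcription factor that raises ribosome production, led with 701 counts in the H2S library against 384 in the control library, a ratio of 1.71 (1.51 to 1.94), followed by MYCN at 1.37 (0.970 to 1.94). TSC1, a brake on mTOR, and MLST8, an mTOR partner, were lowest at 0.825 and 0.819. LARP1, which binds TOP mRNAs, and MTOR itself, both picked out with their values known, were at ratios of 1.01 (0.972 to 1.04) and 0.890 (0.829 to 0.956). A list of p53 and ribosome stress genes also took in genes of other stress responses, among them the EIF2AK kinases and CHAC1. Its ends therefore do not measure ribosome stress. In that list 5 of 17 were at least 25% higher and 5 at or under 0.8. The shares of all measured genes were 20.5% and 19.7%. The ends of that list were the translation-blocking kinases EIF2AK2 at 7.24 (6.77 to 7.74) and EIF2AK1 at 1.59 (1.40 to 1.81), and CHAC1 and BTG2 at 0.338 and 0.678. The kinases did not move together, as EIF2AK3 had a ratio of 0.763 (0.718 to 0.811) and EIF2AK4 one of 0.759 (0.668 to 0.863). MDM2, named after its value was seen, had 0.998 (0.958 to 1.04). Other p53 genes of that list, also picked with their values known, went both ways. CDKN1A had 1.56 (1.35 to 1.80) and CCNG1 had 1.47 (1.38 to 1.56), while SESN1 had 0.911 (0.872 to 0.952). Of the 17 genes, 8 were above 1 and 9 below, against 49.9% of all measured genes above 1.

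Lists of 3 other large complexes had medians on both sides of 0. Beside their counts, 49.9% of all measured genes were above 1, 20.5% at least 25% higher and 19.7% at or under 0.8. Mitochondrial ribosomal proteins, which serve a separate ribosome, had a median log2 ratio of -0.01 over 69 genes, with 8 at least 25% higher and 8 at or under 0.8. MRPS34 stood far from the rest of that list, with 136 counts in the H2S library against 8 in the control library, and was followed by MRPL43 at a ratio of 1.80, while MRPL41 and MRPS28 were lowest at 0.655 and 0.626. Nuclear subunits of oxidative phosphorylation had a median of -0.23 over 57 genes, with 12 above 1 and 20 at or under 0.8, from ATP5E at 1.40 and NDUFA2 at 1.31 to NDUFA5 at 0.573 and NDUFA6 at 0.510. Proteasome subunits had a median of 0.13 over 30 genes, with 18 above 1, 5 at least 25% higher and 1 at or under 0.8, from PSMB5 at 1.38 and PSMA7 at 1.32 to PSMD3 at 0.866 and PSMA5 at 0.7999. The last 2 lists were added after the ribosomal protein values were seen.

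**Figure D4:**
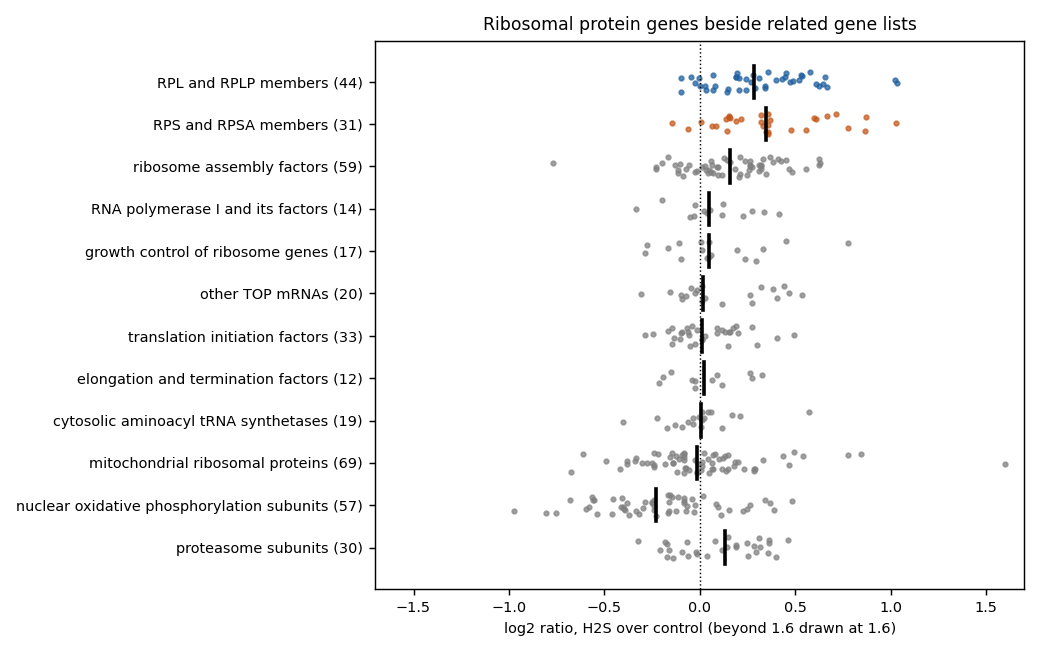
Log2 ratio (H2S over control) of each measured gene in the ribosomal protein group, split by subunit, and in related lists, with the number of genes in brackets and black bars at the medians. The medians of large and small subunit members lie at 0.28 and 0.35, against 0.16 for assembly factors, 0.02 for other TOP mRNAs and -0.23 for oxidative phosphorylation subunits.

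Markers of several cell types also differed between the libraries. For scale, 49.9% of all measured genes were above 1, 20.5% at least 25% higher and 19.7% at or under 0.8. Skeletal muscle markers took 2.55% of counts in the H2S library against 1.84% in the control library, with 21 of 23 measured members above 1, led by the myosins MYH1C (ratio 4.00) and MYH1A (ratio 3.49). The members below 1 were also myosins, MYH1B (ratio 0.949) and MYH1D (ratio 0.984). MYH1B had 73616 counts in the H2S library against 72713 in the control library. Cartilage markers took 2.62% of counts in the H2S library against 2.10% in the control library, with 13 of 13 above 1, led by EPYC (ratio 2.75) and MATN3 (ratio 2.63). B and plasma cell markers took 0.177% of counts in the H2S library against 0.693% in the control library, a gap that lay mostly in IGLL1 (ratio 0.235) and IGJ (ratio 0.202). The list went both ways, with 8 of 16 measured members above 1, 6 at least 25% higher and 6 at or under 0.8, led at the upper end by VPREB3 (ratio 8.25) and CXCR5 (ratio 4.67). In the other lists, 1 of 18 multiciliated cell markers, 5 of 18 T cell markers, 7 of 15 fibroblast markers, 5 of 12 basal and squamous epithelium markers and 4 of 6 measured erythroid markers were above 1. Cell division genes were above 1 for 1 of 22 members, and took 0.0816% of counts in the H2S library against 0.101% in the control library. No listed marker found in the table was at 0 in either library, except 3 erythroid ones in each. The part of these cell types in the ribosomal protein shift was not tested.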

How the data were processed

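The deposited mRNA table holds raw counts per gene for 1 H2S and 1 control library of chicken trachea, with symbols as the authors gave them. Reads were aligned with HISAT2, per the submitters' processing notes. Its version, the genome build, the annotation, the counting tool, strandedness and the treatment of multi-mapped reads were named in no source used here, so reads of overlapping, antisense or near-identical genes cannot be told apart. Counts were divided by TMM effective library sizes (edgeR 4.0.16, R 4.3.3) and are given as CPM on that scale. Ratios are H2S over control, with 95% exact (Clopper-Pearson) intervals of the conditional binomial (scipy 1.17.1), which cover counting error only. These intervals were run on simulated Poisson counts, the model that they assume. That run checks the calculation alone and says nothing about variation between birds or libraries. With 1 library per group there is no test and no p-value. A gene counted as measured from 20 counts in 1 library upwards. The members and lists were chosen with earlier results of these data known. Values are printed by rule for the 8 highest and 8 lowest members, the paralogs, the P-stalk, the 5S partners and the 2 highest and 2 lowest genes of each translation list. The other members are named by band of ratio or as the ends of a structural group. RPL24, RPL38, RPL32, RPS26, RPL22, RPL27, RPS28, RPSA, RPS6, RPS15, RPS23, EEF1A1, LARP1, MTOR and MDM2 were singled out with their values known, as were IGLL1 and IGJ. The same holds for EIF2AK3, EIF2AK4, CDKN1A, CCNG1, SESN1, TPT1, MYH1B and MYH1D. Of each marker list otherwise at most 2 genes are named. No coding or protein length was used, so levels were not ranked per length, and gene span from the RefSeq GRCg7b gene table stood in for protein length. Alternatives were scaling by total counts, by DESeq2 1.42.0 size factors, by the upper quartile and by reduced totals, minimum counts of 1 and 50, and standard subunits alone. Some members enter the counts and medians but are not reported here singly.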

Additional observations from a re-analysis of the deposited data

How the results depend on the processing

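The median log2 ratios of all, large and small subunit members kept their sign under each alternative run, at 0.27 to 0.33, 0.23 to 0.30 and 0.29 to 0.36, and the count of members at least 25% higher ranged from 27 (total counts) to 40 (upper quartile), with 0 at or under a ratio of 0.8. The large minus small difference ranged from -0.07 to -0.05, and the scalings, which move all genes alike, left it at -0.06. Under total counts the median of all measured genes moved by -0.05, and 17.8% of them were at least 25% higher, against 21.3% under the upper quartile. The share of counts depends on what is counted. In the H2S library it was 1.28% without the 20 most abundant genes, 1.16% for standard subunits alone and 1.247% without muscle, cartilage and B cell markers. In the control library it was 1.07%, 0.973% and 1.04% under the same settings. The setting without markers and the centring on gene span were chosen after seeing the data. Centring on protein length was not run, and widening the member list beyond the symbol rule is not reported here. No paired analysis was possible because each group has 1 mRNA library. With 1 library per group no replicate could be left out. Counts under 50 limit the ratios of RPL14, RPL35A and RPL3L, and why these counts are low was not tested.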
